A study of Rattus norvegicus with 75 samples.

Results

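Leukocytes, the white cells of blood and tissue, are not part of the kidney tubule wall, so their transcripts in a hand-dissected tubule can mark cells carried over with the fragment or attached to it. The genes described here are 10 leukocyte markers: Ptprc, Cd74, Laptm5, Coro1a, Csf1r, Cd68, Lyz2, Tyrobp, Fcer1g and C1qa. They were chosen by name, with earlier results of these data known. All 10 of 10 were found among the 32754 genes of the deposited table. Their levels were followed in all 75 libraries of a rat study of early lithium-induced nephrogenic diabetes insipidus, a loss of the kidney's ability to concentrate urine.

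RNA came from 2 kinds of dissected segment of male Sprague-Dawley rats of 120 to 160 g. The cortical collecting duct (CCD) is where vasopressin controls water uptake. In the thick ascending limb of the cortex (cTAL), salt is reabsorbed without water. The rats ate food without lithium (control) or food with lithium chloride at 40 mM per kg. CCD gave 3 control and 2 lithium libraries after 12 h, 3 and 3 after 24 h, 3 and 3 after 36 h, and 17 and 19 after 72 h. The cTAL gave 12 control and 10 lithium libraries after 72 h. The labels do not say which libraries share a rat or a dissection, so the p-values below speak only of library-to-library spread, part of which may be technical.

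The kidney cortex holds a dense network of resident macrophages and dendritic cells between the tubules, and these cells take up debris, present antigen and sense injury. Ptprc (CD45), Laptm5 and Coro1a mark leukocytes of many lineages. Csf1r, Cd68, Lyz2 and C1qa are strongest in macrophages and monocytes. Tyrobp and Fcer1g encode short adapter proteins that carry signals from many activating receptors of myeloid and natural killer cells. Cd74, the invariant chain, escorts MHC class II molecules, which antigen-presenting cells use to display peptides; tubule cells can also make them when stimulated.

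Many myeloid genes carry binding sites for the factor PU.1, encoded by Spi1, close to their start sites, so the stretches upstream of the members are shown first. RefSeq start sites of the GRCr8 build, which is not the Rnor_6.0 build of the expression values, were matched by symbol for 8 of 10 members. Tyrobp and Fcer1g were not matched. The short PU box GAGGAA, or TTCCTC on the other strand, occurred within 250 bases upstream of the start in 6 of the 8 (Ptprc, Cd74, Laptm5, Csf1r, Cd68 and Lyz2), and in 7812 of 33469 such windows of all RefSeq promoters (23.3%). No match was found in the windows of Coro1a and C1qa. The 150 bases before the start of a pan-leukocyte member and of 2 macrophage members follow, 5′ to 3′ along the gene, with the PU box in capitals. Laptm5 lies at chr5:148371730-148371879 on the plus strand, Lyz2 at chr7:54798012-54798161 and Cd68 at chr10:54882442-54882591, both on the minus strand. A match is a stretch of letters and not a measured binding site.
Laptm5: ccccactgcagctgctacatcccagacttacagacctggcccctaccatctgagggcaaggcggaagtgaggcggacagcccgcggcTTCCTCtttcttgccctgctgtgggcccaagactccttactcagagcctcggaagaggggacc
Lyz2: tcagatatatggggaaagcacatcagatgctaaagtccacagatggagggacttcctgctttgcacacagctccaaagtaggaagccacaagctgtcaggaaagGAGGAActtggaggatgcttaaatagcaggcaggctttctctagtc
Cd68: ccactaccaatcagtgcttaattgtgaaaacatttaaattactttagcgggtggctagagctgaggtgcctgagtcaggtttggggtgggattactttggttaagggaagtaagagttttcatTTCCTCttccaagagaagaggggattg
The box began at position -63 from the start in Laptm5, -46 in Lyz2 and -27 in Cd68. Ptprc, whose box began at -163, had its match outside a window of that length.

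Levels are TPM, the share of a library's transcripts that a gene takes, set per length and scaled so that each library adds to 1000000. TPM keeps no depth, so counting error is unknown. Each library had between 10888 and 12411 genes at 1 TPM or more, and 4 libraries were under 11000. The segment labels held: all 7 thick limb markers tested were higher in control cTAL than in control CCD, and all 7 principal cell and 7 intercalated cell markers were lower. Libraries also fell into sets. Within each of the 4 groups at 72 h, consecutive libraries shared a pattern of high and low values over 6 genes that belong to no list used here, which made 16 sets, and each CCD set had a cTAL set of the same pattern. The labels do not say what a set is. The gene AC095947.2 was above 0 TPM in 11 libraries only (CCD lithium 16 to 19, cTAL control 9 to 12 and cTAL lithium 8 to 10). Each group at 12, 24 and 36 h formed 1 set, so time, treatment and set cannot be told apart there.

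Every member was higher in the thick limb than in the collecting duct at 72 h. In control cTAL, Cd74 was at 2165 ± 931 TPM (SD, n = 12; lowest 1293, median 1703, highest 3959), against 133 ± 106 TPM in control CCD (n = 17; 7.51, 113 and 341). Lyz2, the lysozyme of macrophages, was at 820 ± 308 TPM in control cTAL (387, 774 and 1364) and at 55.7 ± 41.4 TPM in control CCD (5.23, 45.9 and 152). For both genes, the lowest cTAL library lay above the highest CCD library.

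**Figure D1:**
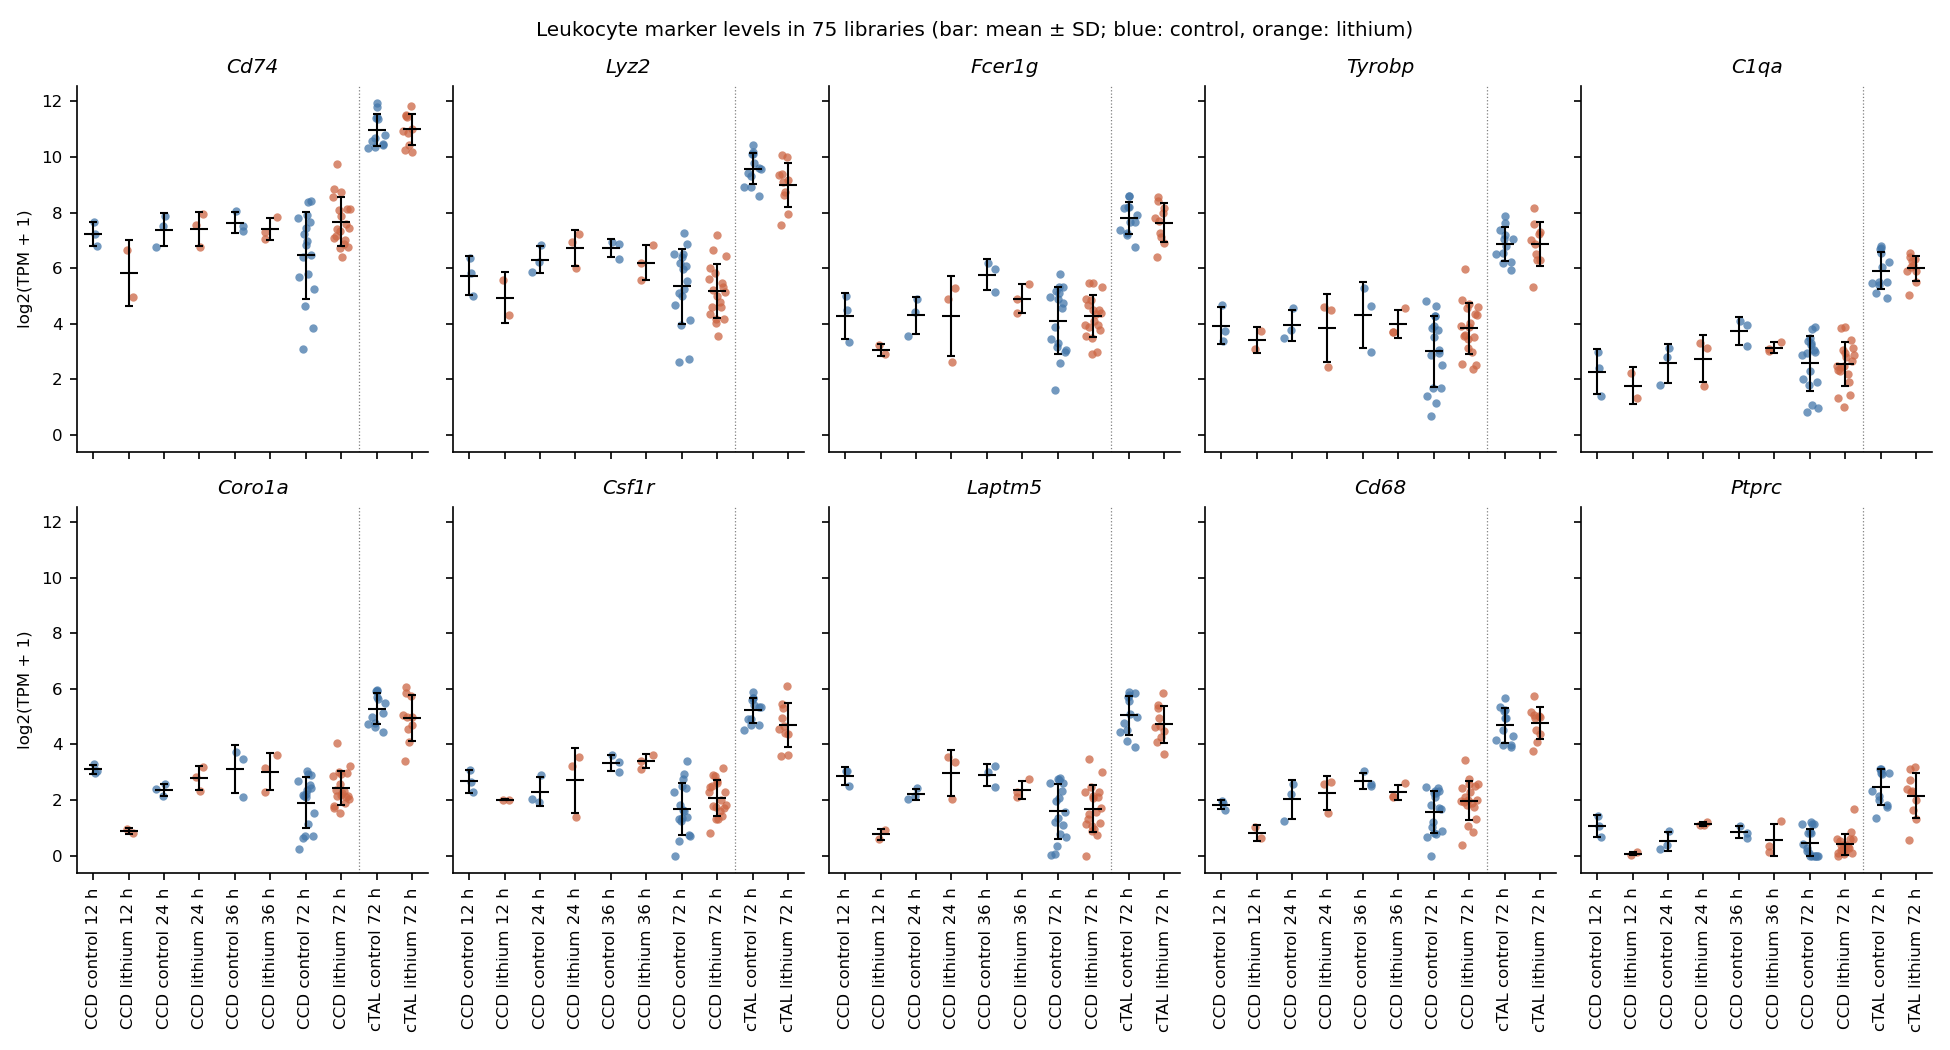
Each panel plots 1 marker as log2(TPM + 1) in all 75 libraries by segment, treatment and time, with points for libraries, blue for control, orange for lithium, and bars for the mean ± SD; the dotted line divides CCD from cTAL. The cTAL groups stand above the CCD groups for all 10 markers, from Cd74 at a mean of 2165 TPM in control cTAL down to Ptprc at 5.00 TPM.

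The same held down the scale of levels. Fcer1g, the shared Fc receptor chain, was at 238 ± 91.4 TPM in control cTAL (108, 222 and 386) and at 21.8 ± 15.4 TPM in control CCD (2.04, 22.7 and 54.9). Its partner in function, Tyrobp, was at 125 ± 53.2 TPM (60.2, 120 and 232) and at 10.1 ± 8.20 TPM (0.63, 7.38 and 27.1). Neither gene had a cTAL library within the CCD range. C1qa, a subunit of the complement starter C1q that macrophages make, was at 65.2 ± 30.0 TPM in control cTAL (29.8, 54.6 and 110) and 6.25 ± 4.08 TPM in control CCD (0.79, 6.82 and 13.8). Csf1r, the receptor for the growth factor that macrophages need to survive, was at 38.1 ± 12.0 TPM in control cTAL (21.96, 39.6 and 58.7) and 2.90 ± 2.58 TPM in control CCD (0, 2.01 and 9.56). Cd68, a glycoprotein of macrophage lysosomes, was at 26.9 ± 11.8 TPM in control cTAL (13.8, 25.8 and 49.9) and 2.36 ± 1.55 TPM in control CCD (0, 2.30 and 4.47). All 3 macrophage genes were again apart between the segments.

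Among the pan-leukocyte members, Coro1a, an actin regulator of leukocytes, was at 40.4 ± 15.3 TPM in control cTAL (20.8, 39.2 and 60.9) and 3.41 ± 2.28 TPM in control CCD (0.19, 3.49 and 7.20). Laptm5, a lysosomal membrane protein of blood cells, was at 35.7 ± 16.5 TPM (14.1, 32.0 and 58.2) and 2.67 ± 2.19 TPM (0.03, 1.98 and 5.90). Ptprc, the receptor phosphatase by which leukocytes are commonly sorted, was the lowest member, at 5.00 ± 2.37 TPM in control cTAL (1.58, 5.30 and 7.66) and 0.466 ± 0.514 TPM in control CCD. It was listed at 0 in 6 of 17 control CCD libraries and reached 1 TPM in 4, so single CCD libraries say little about it. Its groups did not overlap either.

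The test was limma's moderated test on log2(TPM + 1), 2-sided, with p-values adjusted by Benjamini-Hochberg over all genes tested and called at an adjusted p under 0.05. On this scale a difference is understated for low genes. In controls, all 10 members were called higher in cTAL, against 20.3% of all 13083 genes tested, and all 10 had groups that did not overlap, against 5.34%. Ptprc passed the filter on low values, 1 TPM in at least 10 libraries, only through the cTAL libraries, so it had to differ; the other 9 also passed it in the 36 CCD libraries alone. The difference was 4.50 for Cd74 (SE 0.376, adjusted p = 1.86e-16), 4.24 for Lyz2 (SE 0.366, adjusted p = 7.07e-16) and 2.00 for Ptprc (SE 0.207, adjusted p = 7.2e-13). The other members lay between 3.11 for Cd68 and 3.85 for Tyrobp, and the median of the 10 was 3.50, beside -0.25 over all genes. With median-of-ratios scaling, which moved the median of all genes from -0.25 to -0.01, the genes called went from 2662 higher and 6133 lower to 3967 higher and 3778 lower, and the members' median was 3.72. As ratios of mean TPM, cTAL exceeded CCD by 10.4-fold for C1qa to 16.3-fold for Cd74. Fewer leukocytes and less marker RNA per leukocyte cannot be told apart in such bulk RNA.

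Under lithium the segments kept this order. All 10 members were called higher in lithium cTAL than in lithium CCD, against 18.3% of all genes. The differences ran from 1.75 (Ptprc) to 3.83 (Lyz2), with a median of 3.03, beside -0.34 over all genes. The fit and filter were those used for the controls, so Ptprc again passed only through the cTAL libraries and had to differ. The groups did not overlap for 7 of 10, against 5.67% of all genes. Ptprc, Coro1a and Tyrobp overlapped. Coro1a had the smallest ratio of means, 6.91-fold, and Lyz2 the largest, 13.1-fold. Cd74 was 8.81-fold higher in cTAL under lithium.

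Within library sets of the same pattern, the mean TPM of each member was higher in cTAL in 8 of 8 pairs of sets. The ratios ran from 4.07 for Coro1a to 48.7 for Ptprc, and a member's median over the 8 pairs lay between 6.62 (Ptprc) and 13.3 (Lyz2). The ratio of 48.7 divides by a CCD mean of 0.148 TPM, near the floor, so its size says little. In the first control pair, the cTAL set is a single library. All 10 members were called in both treatments under every alternative run.

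**Figure D2:**
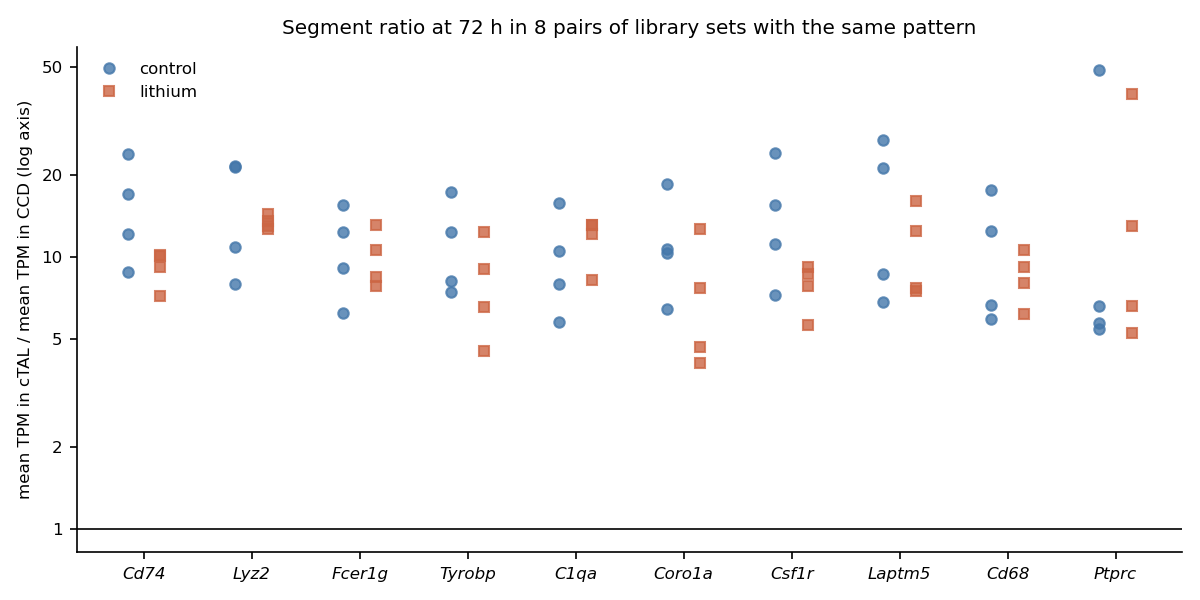
The mean TPM in cTAL divided by that in CCD is plotted on a log axis for each marker, with 1 point for each of 8 pairs of library sets of the same pattern (blue circles control, orange squares lithium); the line marks a ratio of 1. Every point lies above the line, at 4.07 or higher.

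The members kept nearly the same order of level in each segment. Mean TPM in control cTAL fell from Cd74 through Lyz2, Fcer1g, Tyrobp, C1qa, Coro1a, Csf1r, Laptm5 and Cd68 to Ptprc, and the order of means in control CCD at 72 h was the same. In 12 of 12 control cTAL libraries each gene from Cd74 to C1qa was above the next in this order, and Cd68 was above Ptprc. Coro1a and Csf1r, Csf1r and Laptm5, and Laptm5 and Cd68 each kept their order in 9 of 12, so these neighbours were not apart beyond the spread between libraries. In control CCD, Cd74 was above Lyz2 in 17 of 17 libraries, but Laptm5 was above Cd68 in 9 of 17 and Tyrobp above C1qa in 10 of 17.

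Many other leukocyte genes, from lists named for cell types, were higher in control cTAL as well. The counts here leave out genes that passed the filter only through cTAL libraries, 9 of 20 macrophage genes tested, 10 of 24 pan-leukocyte genes and 2 of 7 MHC class II genes. Of the 11 macrophage genes left, 10 were called higher and 1 lower. Those of smallest p were the lysosomal protease Ctss at 3.33, the Fc receptor Fcgr3a at 3.34 and the macrophage surface marker Adgre1 (F4/80) at 2.83. Of 14 pan-leukocyte genes, 10 were called higher and 0 lower, among them the oxidase subunit Cybb at 3.16 and the factor Spi1 at 2.54. Spi1 was at 8.55 TPM in control cTAL and 0.685 TPM in control CCD. All 5 of 5 MHC class II genes, the molecules that Cd74 escorts, were higher, with RT1-Ba at 4.22, RT1-Bb at 4.20 and RT1-Db1 at 3.94.

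The lymphocyte lists were less uniform. Of 8 T and natural killer cell genes tested, 4 passed the filter only through cTAL. Of the other 4, 3 were called higher, among them the co-receptor Cd4 at 3.09, and 1 was called lower. Only Cd79a of the B and plasma cell list was tested, and it was lower in cTAL, at 0.0767 TPM against 5.07 TPM in CCD. No neutrophil or mast cell gene passed the filter. A further list held genes of signalling around the Tyrobp and Fcer1g adapters, which need not bind them. Of its 13 genes tested, 5 passed the filter only through cTAL. Of the other 8, 4 were called higher and 2 lower: the phospholipase Plcg2 (-4.98) and the linker Blnk (-2.16), which were at 61.7 and 237 TPM in control CCD. Plcg2, Blnk and Cd79a thus differed between the segments in the opposite direction to the members.

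Markers of other cell types also differed between the segments. Of 10 endothelial genes tested, 9 passed the filter in CCD alone, and 9 of these 9 were called higher in control cTAL, with Esam at 4.12 and Kdr at 2.74. Their summed level was 526 TPM in control cTAL (260 to 746) and 86.3 TPM in control CCD (28.1 to 270). Of 9 proximal tubule genes that passed the filter in CCD alone, 5 were called higher in control cTAL and 0 lower. Of 4 such fibroblast and smooth muscle genes, 2 were called higher and 1 lower. Of 3 such erythrocyte genes, 0 were called. The median share of mitochondrial transcripts was also higher in control cTAL, 14.9% against 10.2%. The part of these values in the segment difference of the members was not tested.

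Between libraries of 1 segment the members moved together. With the mean of each group at 72 h taken out, all 45 pairs of members had positive Pearson correlations, from 0.378 (Ptprc and Csf1r) to 0.944 (Cd74 and Lyz2) over 36 CCD libraries, with a median of 0.708. Over 22 cTAL libraries they ran from 0.612 (Laptm5 and Cd68) to 0.951 (Tyrobp and Fcer1g), with a median of 0.812. These are descriptions: the libraries fall into sets, and TPM values of 1 library share its total. The mean over the members correlated with that of the macrophage list at 0.848 in CCD and 0.961 in cTAL, with that of the endothelial list at 0.435 and 0.775, and with that of the proximal tubule list at 0.202 and -0.278.

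Among genes outside the 10 with a symbol and a mean of at least 5 TPM, those most like the member mean over the CCD libraries were RT1-Db1 (r = 0.872), C1qb (0.849), RT1-Da (0.846), Aif1 (0.842) and RT1-Bb (0.837). Over the cTAL libraries they were C1qc (0.970), C1qb (0.949), Tmsb4x (0.929), RT1-Db1 (0.924) and Rac2 (0.924). MHC class II and complement C1q genes thus stood in both sets of names. The member mean itself includes Cd74, which escorts MHC class II, and the C1q subunit C1qa, so the choice of members favours such names.

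Single libraries took much of the spread. The 10 members together held 239 TPM on average in control CCD at 72 h, with a range of 17.4 to 600, and 349 TPM in lithium CCD, with a range of 142 to 1110. Control CCD library 2 was at 17.4 TPM, the lowest for 6 of 10 members, and library 1 was at 36.4 TPM. Lithium CCD library 15 was at 1110 TPM, the highest for 5 of 10. In cTAL the sums were 3560 TPM (2049 to 6216) in controls and 3293 TPM (1622 to 5357) under lithium.

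In the collecting duct at 72 h, Cd74 rose with lithium and no other member was called. Cd74 was at 133 ± 106 TPM in controls (n = 17; 7.51, 113 and 341) and 247 ± 184 TPM with lithium (n = 19; lowest 83.6, median 172, highest 850). The groups overlapped for Cd74 as for every other member, while 1.71% of all genes had lithium libraries wholly above control and 0.309% wholly below. The log2 difference was 1.21 (SE 0.384, 95% interval 0.44 to 1.99), with limma's adjusted p = 0.0112 and a ratio of means of 1.86. Of 11644 genes tested, 37.3% were called, 22% higher and 15.2% lower, so 1 called member of 9 tested is below the background. With median-of-ratios scaling the split of 2564 higher and 1774 lower became 2400 and 2318. Ptprc did not pass the filter of 1 TPM in enough libraries.

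The other members differed less. Tyrobp was at 10.1 ± 8.20 TPM in controls and 16.5 ± 13.1 TPM with lithium (n = 19; 4.14, 13.8 and 61.4), a log2 difference of 0.83 (SE 0.345, limma adjusted p = 0.0545). Coro1a was at 3.41 ± 2.28 and 4.95 ± 3.19 TPM (1.89, 3.78 and 15.7), a difference of 0.52 (SE 0.243, limma adjusted p = 0.0901). Lyz2 was at 55.7 ± 41.4 and 44.0 ± 34.4 TPM (10.8, 34.7 and 146), a difference of -0.18 (SE 0.362, limma adjusted p = 0.735). The ranges overlapped for all 3, and the highest lithium library was above the highest control for Tyrobp and Coro1a but not for Lyz2. Over the 9 members tested, 3 had an unadjusted p under 0.05, 7 differences were positive and 2 negative, and the median was 0.38, beside 0.00 over all genes.

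The Cd74 call depended on library sets. Its set means were 82.9, 154, 161 and 135 TPM in controls and 153, 283, 443 and 146 TPM with lithium. Without lithium libraries 12 to 15, the difference was 0.96 and limma's adjusted p was 0.0627, and with set means in place of libraries it was 0.83 with an adjusted p of 0.138.

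MHC class II genes rose beside Cd74. Of 4 tested, 3 were called higher: RT1-Ba at 1.37 (adjusted p = 0.00102), RT1-Bb at 1.46 (adjusted p = 0.00111) and RT1-Da at 1.03 (adjusted p = 0.0409), all by limma. RT1-Ba was at 5.03 ± 4.41 TPM in controls and 14.2 ± 13.4 TPM with lithium, with overlapping ranges. Of 8 macrophage genes 0 were called, and of 11 pan-leukocyte genes 3 were called higher and 2 lower, with Ncf4 at 0.56, Itgal at -0.50 and Lcp1 at -0.33. Endothelial markers went the other way: 9 of 9 tested fell (median -0.98), and those of smallest p were Esam at -1.35 (limma adjusted p = 9.75e-06), Tie1 at -1.01 and Tek at -0.98. Their sum was 86.3 TPM in controls and 38.1 TPM with lithium (11.7 to 100). The part of these endothelial values in the leukocyte results was not tested.

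At 72 h, Cd74 stood higher against Lyz2, and against the sum of the other 9 members, in lithium libraries. The ratio of Cd74 to Lyz2 in the same library, a pair chosen after its values were seen and given with no test, was 2.28 ± 0.565 in control CCD at 72 h (n = 17; 1.44, 2.18 and 3.62) and 6.14 ± 1.78 in lithium CCD (n = 19; 2.95, 6.33 and 9.37). The set means were 2.04 to 2.47 in controls and 5.39 to 7.07 with lithium, so the sets did not overlap, although single libraries did. In cTAL the ratio was 2.66 ± 0.535 in controls (n = 12; set means 1.81 to 2.85) and 4.14 ± 1.18 with lithium (n = 10; set means 3.51 to 4.86). Earlier CCD libraries did not show this order throughout. The mean ratio at 12 h was 2.89 in controls against 1.88 with lithium, and at 24 h it was 2.15 against 1.63, lower with lithium both times. At 36 h it was 1.91 in controls against 2.36 with lithium. Cd74 over the sum of the other 9 members had means of 1.16 and 2.44 in control and lithium CCD at 72 h, and 1.56 and 2.07 in cTAL. Lyz2 has the highest mean TPM of these 9, so it weighs most in that sum. The order did not hold against every member. In cTAL the log2 lithium difference was 0.02 for Cd74, 0.08 for Cd68 and 0.10 for C1qa, while 6 of 10 members had negative differences. In CCD it was 1.21 for Cd74 and 0.83 for Tyrobp. The same quotient at 12 h was 1.33 in controls against 1.04 with lithium, at 24 h 1.27 against 1.03, and at 36 h 0.907 against 1.13.

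**Figure D3:**
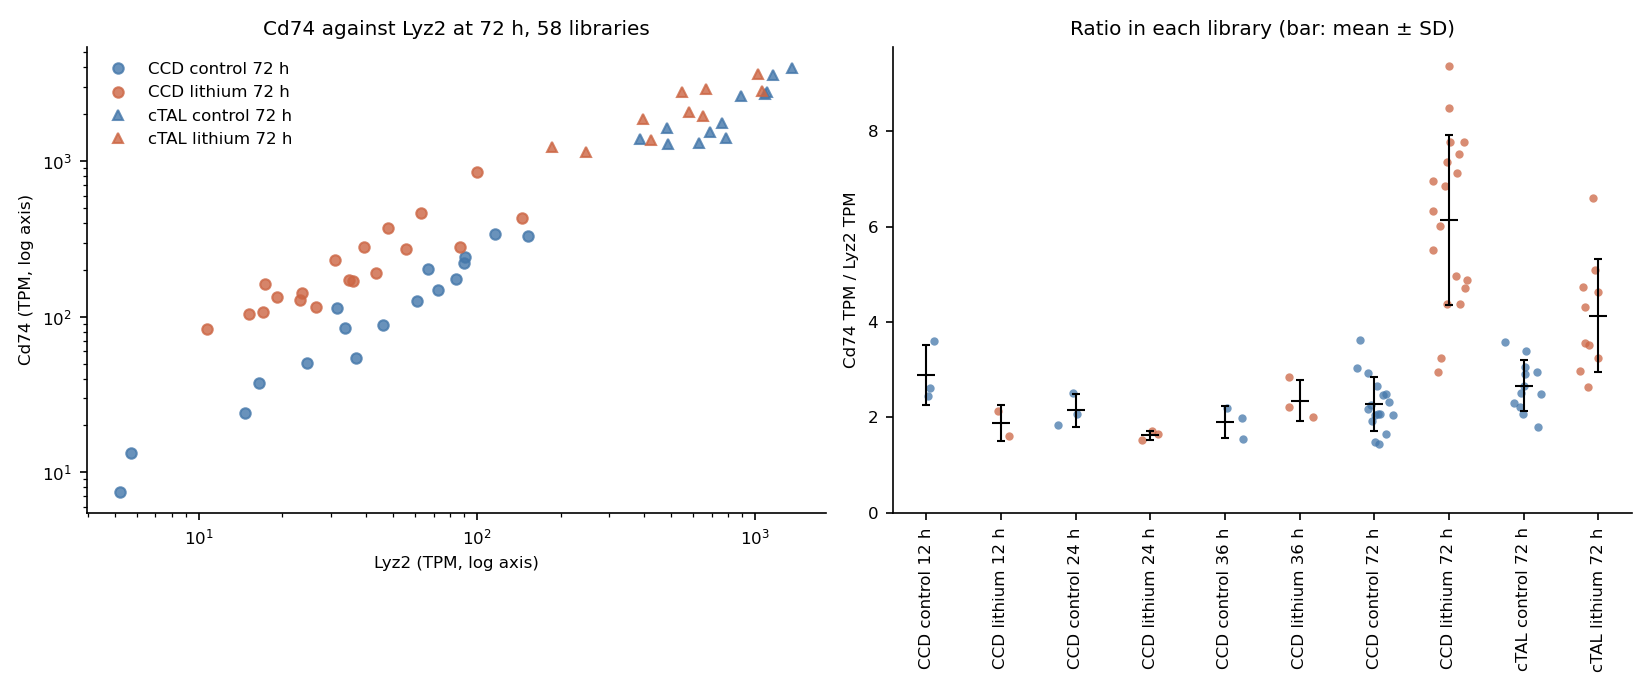
Left, Cd74 is plotted against Lyz2 in TPM on log axes for the 58 libraries at 72 h (circles CCD, triangles cTAL; blue control, orange lithium). Right, the ratio of Cd74 to Lyz2 is plotted for each library of all 10 groups with the mean ± SD; lithium CCD libraries at 72 h sit at 2.95 to 9.37 and control ones at 1.44 to 3.62.

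At 12 h the members were lower in the lithium CCD libraries. Coro1a was at 8.74, 7.23 and 6.92 TPM in the 3 control libraries and at 0.93 and 0.75 TPM in the 2 lithium libraries. Laptm5 was at 7.34, 4.61 and 7.21 TPM and at 0.53 and 0.88 TPM. Both lithium libraries were far below the controls for both genes. Coro1a fell by 2.23 on the log2 scale (SE 0.412, limma adjusted p = 0.00213) and Laptm5 fell by 2.10 (SE 0.366, limma adjusted p = 0.0013). These 2 of 10 were called, against 3.3% of all 12998 genes called lower and 10.4% called in either direction.

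Cd74 was at 201, 111 and 148 TPM in the control libraries and 101 and 30.5 TPM in the lithium ones, a difference of -1.40 (limma adjusted p = 0.0596). Ptprc was at 1.71, 0.59 and 1.11 TPM and at 0.02 and 0.09 TPM, a difference of -0.99 (limma adjusted p = 0.0584). Lyz2 was at 81.9, 30.7 and 56.3 TPM and at 46.9 and 18.8 TPM. The lithium libraries lay wholly below the controls for Cd74 and Ptprc but not for Lyz2. In all, 7 of 10 members had such groups (Cd68, Cd74, Coro1a, Csf1r, Fcer1g, Laptm5 and Ptprc), against 11.5% of all genes. All 10 differences were negative, from -0.49 for C1qa to -2.23 for Coro1a, with a median of -0.995 beside 0.06 over all genes, and 5 had an unadjusted p under 0.05.

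The 10 members summed to 273 TPM on average in the controls at 12 h and to 124 TPM in the lithium libraries. Among the other lists, 4 of 20 pan-leukocyte genes were called lower, including the selectin ligand Selplg (-1.13), the GTPase Rac2 (-1.39) and the tetraspanin Cd53 (-1.57). MHC class II had 2 of 6 lower (RT1-Ba at -1.43 and RT1-Db1 at -1.61), the macrophage list 1 of 17 (Clec10a at -1.35) and the T and natural killer list 1 of 7 (Cd4 at -1.78). Endothelial genes had 0 of 10 called, with a median of -0.57. On means of library sets, where each group at 12 h is 1 value whose error is borrowed from the 72 h sets, Coro1a differed by -2.23 with a limma adjusted p of 0.214. With either lithium library left out the lithium arm is a single library, assumed to vary like the other groups; Coro1a and Laptm5 were then called, and Cd74 was also called without lithium library 1 (-2.25, limma adjusted p = 0.0099). Ptprc was also called without control library 2 (-1.18, limma adjusted p = 0.0376).

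At 24 h no member was called, against 23.6% of all genes. Ptprc was at 0.32, 0.18 and 0.87 TPM in control and 1.17, 1.34 and 1.14 TPM in lithium libraries, a difference of 0.63 (SE 0.283, limma adjusted p = 0.122). Laptm5 was at 3.45, 3.10 and 4.38 TPM and at 3.09, 9.40 and 10.6 TPM, a difference of 0.78 (SE 0.327, limma adjusted p = 0.0999). Lithium lay above control in every library for Ptprc, as for 32.2% of all genes, but not for Laptm5. Of the 10, 2 had an unadjusted p under 0.05 and 8 differences were positive, with a median of 0.32 beside 0.13 over all genes. Lithium library 1 was the lowest of its group for 9 of 10 members, at 107 TPM of Cd74 against 248 and 186. Without it, Laptm5 (1.25, limma adjusted p = 0.00307) and Csf1r (1.08, limma adjusted p = 0.0191) were called higher.

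At 36 h no member was called by limma, 0 of 10 had an unadjusted p under 0.05, and 32.2% of all genes were called. Fcer1g was at 34.2, 72.0 and 61.3 TPM in control and 28.5, 42.1 and 19.9 TPM in lithium libraries, a difference of -0.86 (SE 0.573, limma adjusted p = 0.272). Cd74 was at 160, 265 and 180 TPM in control and 157, 227 and 132 TPM in lithium libraries. The groups overlapped for both, and for every other member, while 14% of all genes had lithium libraries wholly below control and 32.9% wholly above. The median difference was -0.36, beside 0.13 over all genes, and 9 of 10 differences were negative.

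Over time, mean TPM in control CCD was highest at 36 h for 9 of 10 members, and Ptprc was highest at 12 h. It was lowest at 72 h for 7 members. In lithium CCD, 12 h was lowest for 10 of 10. A moderated F-test over the 4 control groups called 1 of 10, Csf1r (limma adjusted p = 0.0244), against 13.8% of all genes. Csf1r had means of 5.56, 4.15, 9.21 and 2.90 TPM at 12, 24, 36 and 72 h, and its call was lost without control library 2 (limma adjusted p = 0.103) or 3 (0.0631) at 36 h, or libraries 1 to 4 at 72 h (0.0682). Coro1a had a limma adjusted p of 0.0511. A test of whether the lithium difference varied over the 4 times called only Coro1a (limma adjusted p = 0.0279), against 8.43% of all genes. Its differences were -2.23, 0.42, -0.10 and 0.52, and the call was lost without any single one of the 5 libraries at 12 h (limma adjusted p = 0.0535 to 0.180).

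In the thick limb at 72 h, no member was called with lithium, in a comparison where limma called 0.701% of all 11702 genes. Cd74 was at 2165 ± 931 TPM in controls (n = 12) and 2175 ± 827 TPM with lithium (n = 10; 1150, 2005 and 3631), a log2 difference of 0.02 (SE 0.224, limma adjusted p = 0.98). Lyz2 was at 820 ± 308 and 579 ± 293 TPM (187, 563 and 1063), a difference of -0.59 (SE 0.264, limma adjusted p = 0.352). Csf1r was at 38.1 ± 12.0 and 28.8 ± 17.2 TPM (11.0, 23.3 and 68.2), a difference of -0.53 (SE 0.247, limma adjusted p = 0.381). These last 2 were the members with an unadjusted p under 0.05. No member had groups apart, where 0.0171% of all genes had lithium wholly below control and 0% wholly above. The median difference was -0.24, beside -0.08 over all genes, and 6 of 10 were negative. No gene of any other list was called. All endothelial genes tested had negative differences here too, from -0.15 for Esam to -1.33 for Tie1, with Kdr at -1.04 (limma adjusted p = 0.176). The part of these endothelial values in the member differences was not tested.

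Within the cTAL libraries with AC095947.2, treatments were apart for most members. There, Cd74 averaged 3214 TPM in 4 controls (2631 to 3959) and 1491 TPM in 3 lithium libraries (1230 to 1872). Lyz2 averaged 1127 TPM (889 to 1364) and 334 TPM (187 to 421). The lithium libraries were wholly below the controls for 9 of 10 members, against 14% of all genes, with C1qa the exception. In a split chosen after seeing the data, 9 of 10 were called lower, against 4.3% of all genes, with Lyz2 at -1.82 (limma adjusted p = 0.00613), Coro1a at -1.80 (0.0047), Csf1r at -1.43 (0.0111) and Cd74 at -1.11 (0.00953). Each arm there is 1 library set, so treatment and set cannot be told apart.

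In the libraries without AC095947.2, 8 control and 7 lithium, no member was called and the median difference was 0.32. Cd74 averaged 1640 and 2467 TPM (difference 0.55, limma adjusted p = 0.496), Lyz2 667 and 683 TPM, and Fcer1g 211 and 258 TPM. The Cd74 difference was thus positive here and negative in the libraries with AC095947.2, and the gap between these values was not tested.

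**Figure D4:**
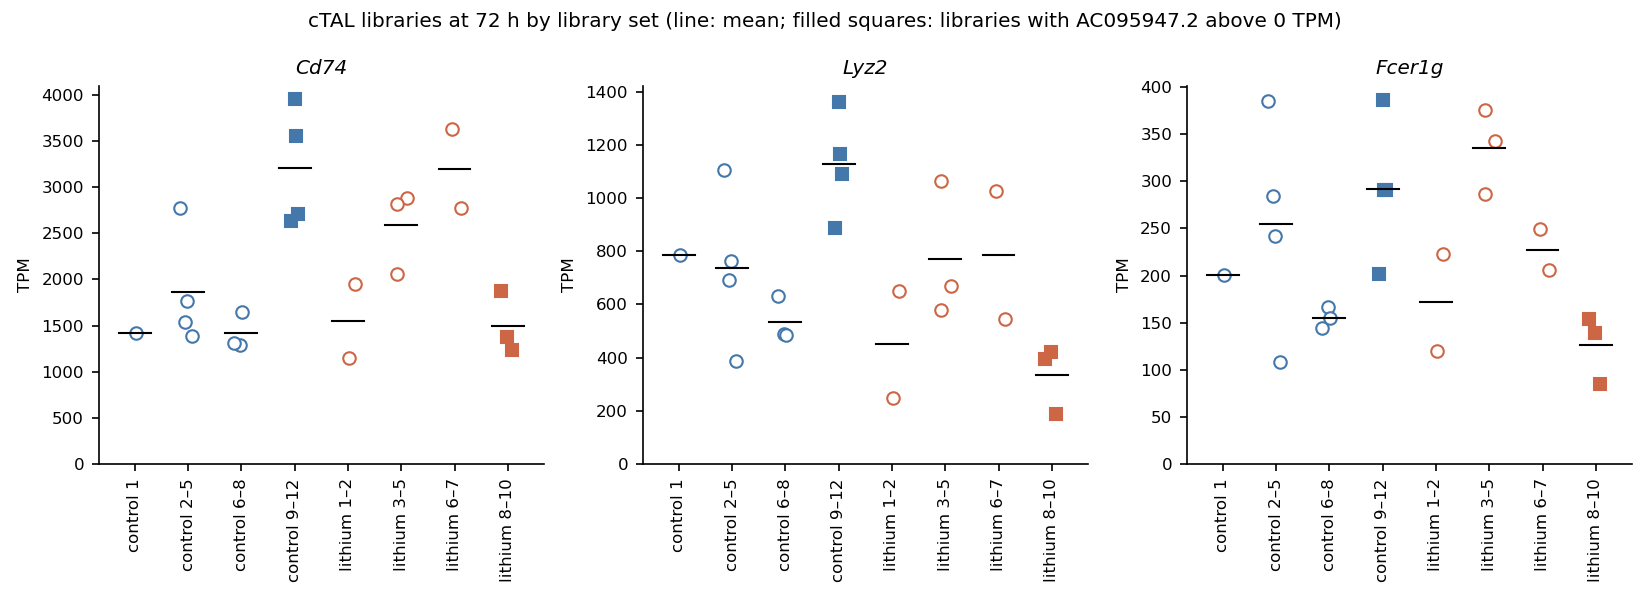
TPM of Cd74, Lyz2 and Fcer1g is plotted for each cTAL library at 72 h by library set (blue control, orange lithium; lines mark set means; filled squares mark libraries with AC095947.2 above 0 TPM). The filled control set averages 3214 TPM of Cd74 and the filled lithium set 1491 TPM, while libraries of the open sets overlap between treatments.

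The lithium difference was also compared between segments at 72 h, as the difference in cTAL less that in CCD. No member was called, against 15.3% of all genes, and 3 had an unadjusted p under 0.05. The values were -1.19 for Cd74 (SE 0.541, limma adjusted p = 0.138), -0.91 for Csf1r (limma adjusted p = 0.107) and -0.86 for Coro1a (limma adjusted p = 0.137). Of the 10, 9 were negative, with a median of -0.42 beside -0.08 over all genes.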

How the data were processed

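The authors deposited TPM values per gene for 75 libraries. Per the submitters' processing notes, STAR 2.5.2b, RSEM 1.2.31 and the Rnor_6.0 build were used. Per the labels' protocols, cDNA was made with a SMARTer kit, amplified for 15 PCR cycles and made into libraries with Nextera XT; strand and molecular identifiers are not given in the sources used here. Groups came from segment, agent and time in the labels. No 2 libraries held identical values.

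From the TPM values, limma 3.58.1 (R 4.3.3) was run on log2(TPM + 1), its prior variance following mean level, keeping genes with at least 1 TPM in as many libraries as the smallest group of the fit. Groups at 12, 24 and 36 h shared 1 fit, as did the 4 groups at 72 h for segments and for the difference between segments, and the 8 CCD groups for time. The lithium comparisons at 72 h used their own 2 groups. 2-sided p-values were adjusted by Benjamini-Hochberg. All 10 members were named throughout, and from every other list up to 3 called genes of smallest p; others named by level were chosen after their values were seen. The 10 members and 15 other lists were chosen with earlier results of these data known. Of 208 listed genes, 10 were unmatched. 1 listed gene is not reported here. The procedure was tested on simulated data. Alternatives were a pseudocount of 0.1, no filter, median-of-ratios scaling, means of library sets, a replicate block and leaving out libraries. Chosen after seeing the data were splits by AC095947.2 and the removal of libraries under 11000 genes. Tables were handled with Python 3.11.15 and pandas 2.3.3, and plots drawn with matplotlib 3.10.9.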

Additional observations from a re-analysis of the deposited data

Results flagged for a closer look

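The lithium difference of Coro1a in CCD varied between time points, from -2.23 at 12 h to 0.52 at 72 h on the log2 scale, and the test of that difference gave a limma adjusted p of 0.0279. That call was lost when any single library at 12 h was left out. It was also lost with no filter, on set means and with the replicate block. No library of the cTAL lithium group, the one group of 4 to 10 libraries, lay far from the rest for any of the 10 members.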

How the results depend on the processing

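All 10 members were called higher in cTAL in both treatments under every alternative. In CCD at 72 h, 2 members were called with a pseudocount of 0.1 and in libraries without AC095947.2 (Cd74 and Tyrobp), 0 on means of library sets, and 0 to 2 with a library set left out. At 12 h, 4 were called with a pseudocount of 0.1 and 0 on set means, and at 24 h 0 to 2 with 1 library left out. For control CCD over time, 0 were called with a pseudocount of 0.1 and on set means, 2 without libraries under 11000 genes, and 0 to 2 with libraries left out. For the lithium difference over time, 0 were called with no filter and on set means, and 0 to 1 with libraries left out. For the difference between segments it was 0 to 1. In cTAL, 9 were called in libraries with AC095947.2 alone, where the Cd74 difference was -1.11, and leaving out sets moved it from -0.15 to 0.35. The Lyz2 difference in CCD at 72 h moved from -0.48 to 0.0192 in the same way. The cause of these changes was not tested, though set means leave fewer samples.

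Over all genes, set means lowered the count called in CCD from 4338 to 1779 at 72 h, 4189 to 678 at 36 h, 3074 to 295 at 24 h and 1352 to 39 at 12 h. It went from 2000 to 449 between segments, from 1941 to 40 for control time and from 1189 to 71 for lithium over time. In cTAL, 82 genes became 0 on set means, 31 with no filter, 1 to 223 with a set left out, 6 in libraries without AC095947.2 and 658 in those with it.

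Median-of-ratios scaling evened the split of higher and lower calls in CCD, from 3084 and 1105 to 2149 and 1996 at 36 h, from 2385 and 689 to 1586 and 1433 at 24 h and from 923 and 429 to 792 and 689 at 12 h. The split went from 2392 and 6952 to 4016 and 3939 between segments under lithium, from 450 and 1550 to 857 and 1109 for the difference between segments, and from 13 and 69 to 20 and 54 in cTAL. The median of all genes at 36 h and 24 h moved from 0.13 to 0.00 and -0.01. It changed no member's call except that Ptprc was also called at 12 h (adjusted p = 0.0433 by limma).

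Replicate numbers are shared between groups, but the main fits did not pair samples by them. In no comparison did every pair of same-numbered libraries correlate above 0.1, nor did every library correlate best with its own number. Because it asks this of every pair, the rule cannot exclude that some libraries are paired. Single pairs reached 0.374 between the cTAL groups and 0.250 between the CCD groups at 72 h. With the replicate block, the calls over control time went from 1 to 8 members and from 1941 to 3668 genes, the lithium difference over time had 0 members called, and the cTAL count went from 82 to 1 gene.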

Other observations

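Control CCD library 3 at 24 h carried some transcripts of the neutrophil and mast cell list that its companions lacked or nearly lacked. S100a8 was at 41.3 TPM and S100a9 at 37.9 TPM there, against 0 and 0 TPM, and 0 and 0.15 TPM, in libraries 1 and 2. The antimicrobial genes Camp and Ngp were at 7.82 and 7.68 TPM. Mmp8 was at 1.15 TPM there and at 0 TPM in libraries 1 and 2. The remaining genes of the list did not follow. Mpo, Elane, Cxcr2, Mmp9 and Fcnb were at 0 TPM in library 3. Csf3r was at 0.37 TPM there, against 0.09 and 0.34 TPM in libraries 1 and 2. The neutrophil and mast cell list summed to 96.2 TPM in that library and to 0.27 and 0.49 TPM in the other two. The same library was the highest of its group for all 10 leukocyte members, at a sum of 430 TPM.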
